A study of Gallus gallus with 4 samples.

Results

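Nested antisense units are transcription units (TUs) that lie wholly inside the span of a longer unit read from the opposite DNA strand. A unit was 1 gene of a StringTie assembly, taken as whichever of its transcripts had the most FPKM (fragments per kilobase of transcript, scaled to the total of the run). Members had 2 or more exons, and both the member and the enclosing unit, called its host, were assigned the strand of the run that assembled them. FORW units come from the run on forward reads and REV units from the run on reverse reads. On chromosomes 1 to 15 and 17 to 28 this rule gave 473 members, which is 3.18% (95% Wilson interval 2.91 to 3.47%) of 14878 spliced units and a small part of the 22884 units of the assembly. They lay in 438 hosts. Members were thus chosen by position, strand and exon number as measured in this assembly, so that members are shorter than their hosts is built into it.

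The assembly describes the RNA of wild-type chicken oocytes of 1 to 2 mm in diameter, a size at which lampbrush chromosomes (LBCs) are present. The libraries of the series comprise 2 from isolated nuclei and 2 from ooplasm, each a stranded poly(A) library of 1 oocyte part read as pairs of 100 nt. The authors merged reads of several experiments before assembly, including earlier total RNA libraries of oocyte nuclei. Every value below is therefore a pooled value without replicates, the depth per library is unknown, no difference was tested, and intervals cover only the number of units counted.

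Lampbrush chromosomes are the extended diplotene chromosomes of growing oocytes. Their lateral loops carry long, densely transcribed units, and transcription along the loops is known to run through long stretches of DNA. Genes nested inside an intron of another gene are common in animals, often on the opposite strand. Where exons of both genes cover the same bases, the RNAs are complementary there and are called natural antisense transcripts. The units carry assembly identifiers only and were not matched to gene names or marker genes, so the roles of their products and the cell type label are not described.

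Most members shared exonic sequence with their host. In 316 of 473 (66.8%, 62.4 to 70.9%) at least 1 exon covered bases of a host exon on the other strand. A further 44 (9.30%) lay in hosts of 1 exon, where overlap cannot be avoided. Exons of 113 members (23.9%, 20.3 to 27.9%) lay wholly in host introns. Of these, 104 sat in 1 host intron, and the other 9 had introns of their own passing over host exons. Among all 2407 pairs of overlapping opposite-strand units whose shorter unit was spliced, 5.90% had no exon over an exon. Among the 1933 of these that overlapped only in part it was 1.45%. In partly overlapping pairs an end of each unit has to lie inside the other.

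Exons lay wholly in host introns in 56 of the 245 FORW members and in 57 of the 228 REV members, and the intervals of these shares overlap widely. For 926 single-exon units nested antisense, 20.4% lay in 1 host intron (17.9 to 23.1%). Introns made up 69.2% of the span of the median host with introns and 73.0% of the summed span of such hosts. Of the 1653287 exonic bases of members in these hosts, 36.1% covered host exons. This share was somewhat above the exon share of the hosts' summed length, in which long hosts weigh most. The exon share of single hosts varied widely, with quartiles of 14.7 and 82.3% over all 438 hosts, those of 1 exon included. With each host counted equally the comparison was not made, and no test was run.

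**Figure D1:**
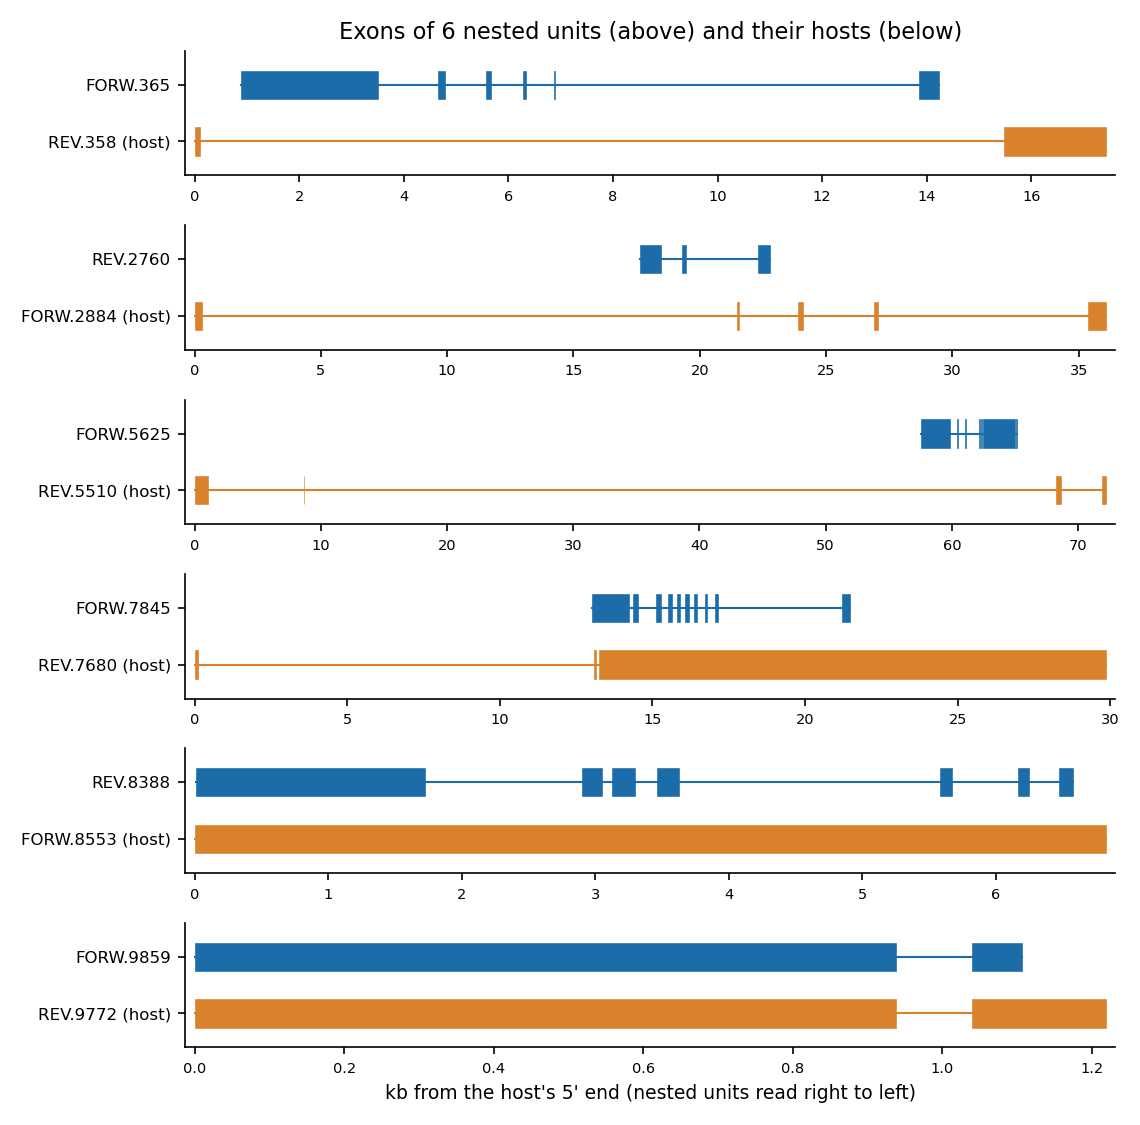
Exon maps of 6 nested units (blue, upper row) and their hosts (orange, lower row), each pair on its own axis in kb from the 5′ end of the host, with boxes for exons and lines for introns. FORW.365 lies in 1 intron, REV.2760 spans a host exon within its intron, FORW.5625 lies in intron 2 of 3, FORW.7845 and REV.8388 cover long host exons, and FORW.9859 has the same 101-bp intron as its host.

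Among the 316 members over a host exon the overlap ranged widely. The median member had 88.2% of its exonic bases over host exons (quartiles 17.1 and 100%), and 134 were covered completely. The overlap measured 1555.5 bp in the median and 41 to 11284 bp in all. Last exons of members lay over a host exon in 67.6% of 429 members, internal exons in 62.9% of 857 cases and first exons in 57.1%. On the host side, 40.2% of the last exons of these 316 pairs were touched, against 20.6% of first and 14.3% of 3396 internal exons. Counted per exon, the 3′ end exon of the host was thus the one most often met by a nested unit. Counted by member, internal host exons were met more often than last ones. Exon length was not taken into account in either count.

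A split made after the values had been seen separated 2 forms of overlap. In 126 of the 316 (39.9%) the whole member, introns included, lay inside 1 host exon. These host exons were very long, 10.2 kb in the median and 2.57 to 71.9 kb in all, while the median exon of all spliced units measured 142 bp. The enclosing exon was the last exon of the host in 70 cases, the first in 31 and an internal one in 25. Coverage of that exon was below the host's mean by a median of −0.32 on the log2 scale. The mean includes that long exon itself, which draws this value toward 0, so it does not measure the difference from the other exons. Together with the single-exon hosts, 170 of 473 members (35.9%) were spliced units in DNA that the opposite strand carried as unspliced sequence. The host exons touched by the other 190 members with exon overlap had a median length of 148 bp. Every touched exon entered this median, so members that touch many exons weigh more. Long exons were among them, such as those of 20090 and 13611 bp under FORW.8273. In the median, 30.3% of the exonic bases of these 190 members lay over host exons. Of these 190, 148 met an internal host exon.

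FORW.7845, on chromosome 13 at 13863509 to 13871938 of ASM2420605v2, had the highest level of all members. It had 10 exons, a coverage of 1746 reads per base and 164.5 FPKM. Its host REV.7680 had 3 exons over 29.9 kb and a coverage of 38.5, so that the ratio was 45.3. Exons 1 to 9 of FORW.7845 lay entirely over exon 3 of the host, which had a coverage of 37.7. Their own coverage was 198 in exon 1 and between 1266 and 2882 in exons 2 to 9. Exon 10 lay partly over exons 2 and 3 of the host and had a coverage of 1736. Of the exonic bases of FORW.7845, 93.0% were antisense to the host.

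A whole unit inside 1 host exon is illustrated by REV.7635 on chromosome 13 (11153723 to 11155756), whose 5 exons fit in the 2.65-kb exon 5 of the 12-exon host FORW.7810. REV.7635 had a coverage of 1252, against 146 in the host as a whole and 91.8 in that exon. REV.9674 on chromosome 25 (379288 to 382099) had 6 exons in a 4.92-kb exon of FORW.9774. Its coverage was 356, against 6.35 in the host, a ratio of 56.1.

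Members in introns occupied the long introns of their hosts. Of the 104 in 1 intron, 83 (79.8%, 71.1 to 86.4%) lay in the host's longest intron and 42 (40.4%) in the first. With the 87 in hosts of 3 or more introns alone, 68 (78.2%) lay in the longest, 28 (32.2%) in the first and 10 in the last. The occupied introns had a median length of 29.1 kb (1.89 to 329 kb), while all 987 introns of these hosts had a median of 1.31 kb. A longer intron offers more room for a unit, and the median member spanned 25.1% of its intron (0.864 to 92.3%). An intron shorter than the member cannot hold it, and these members had a median span of 5.35 kb. The use of long introns is thus partly set by the rule, and no comparison with the share of intron length was made.

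FORW.365, on chromosome 1 at 51076538 to 51089869, filled most of the only intron (15.4 kb) of REV.358. Its coverage was 958, against 35.9 in the host, a ratio of 26.7. Coverage of its 6 exons ran from 430 in the first to 1395 in exon 5, and the host's exons had 2.51 and 37.8. FORW.5625, on chromosome 6 at 20692017 to 20699637, lay in the 59.5-kb intron 2 of REV.5510. Here coverage was high on both strands, 584 in the 7-exon member and 539 in the host, a ratio of 1.08 or 0.12 on the log2 scale. That log2 ratio was 1.145 by median exon coverage and 2.48 with the longest transcript of each unit. Exon coverage varied by more than 10 times within each unit, with 113 to 1184 in FORW.5625 and 34.1 to 2138 in REV.5510.

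The 9 members whose introns passed over host exons had 2 or 3 exons and spans of 3.36 to 48.0 kb. In 8 of them coverage was below that of the host, with ratios of 0.0253 to 0.200. The exception was REV.2760 on chromosome 3 (25521280 to 25526418), with 923 reads per base in the member and 17.7 in its host FORW.2884. Its 3 exons had a coverage of 319, 1355 and 1192, and its first intron of 2856 bp passed over a host exon. REV.6835 on chromosome 10 had the longest span of all members (48.0 kb), in 2 exons joined by an intron of 30105 bp. FORW.5517 on chromosome 6 had the longest intron (43740 bp), and its coverage was 5.23, against 154 in its host REV.5377.

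Along the host the members were spread over the whole length. The midpoint, counted from 0 at the 5′ end to 1 at the 3′ end of the host, had a median of 0.492 with quartiles of 0.290 and 0.701. Divided into 3 equal parts, the hosts held 144 members in the 5′ part, 192 in the middle and 137 in the 3′ part. The first 10% of host length held 31 and the last 10% held 18. A unit with a length of its own cannot have its midpoint at the very end of its host, and the median member spanned 17.3% of it. Within 1 kb of the host's 5′ end lay 50 members, and 50 came within 1 kb of its 3′ end, with 6 members in both counts. Of the 104 members in introns, 5 came within 1 kb of the 5′ end and 0 of the 3′ end. Medians were 0.456 for members in 1 intron and 0.495 for those over exons, 0.517 for FORW and 0.465 for REV members. The single-exon nested units lay nearer the 5′ end, with a median of 0.431 and 132 of 926 in the first 10% of the host.

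**Figure D2:**
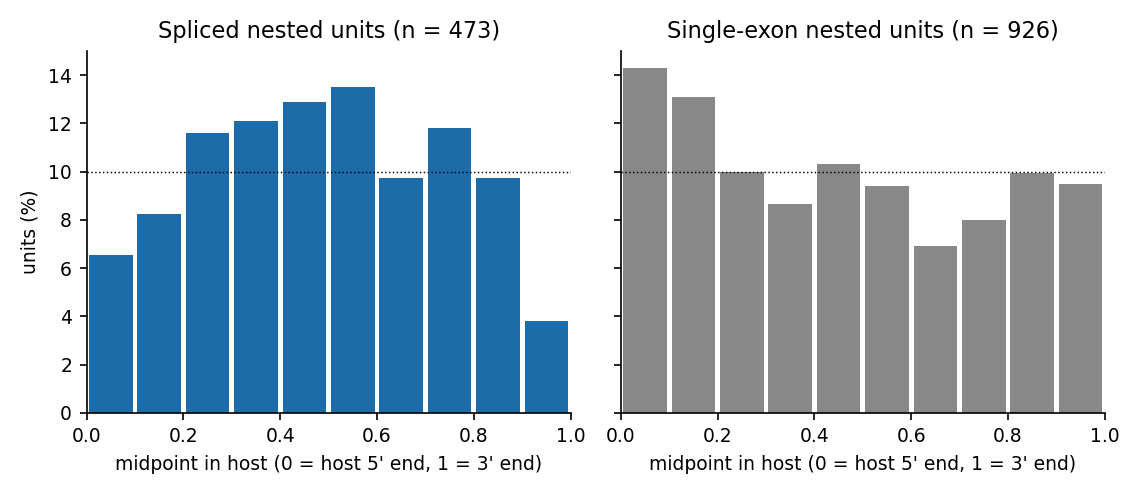
Share of units (%) by midpoint in the host in bins of 10% of host length, from the 5′ end (0) to the 3′ end (1), with 473 spliced nested units on the left and 926 single-exon nested units on the right (the dotted line marks 10%). The spliced units are fewest in the first and last bins (31 and 18), while the single-exon units are most frequent in the first bin (132).

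The median member had a lower coverage than its host. Coverage was 16.7 reads per base in the median member and 37.0 in the median of the 438 hosts. The median ratio within pairs was 0.458, or −1.13 on the log2 scale (95% interval of the median −1.44 to −0.75, quartiles −2.76 and 0.77). In 173 of 473 pairs (36.6%, 32.4 to 41.0%) the member was above its host. In all 2407 overlapping pairs the shorter unit was above the longer in 46.5%, and in the partly overlapping ones in 49.0%. The log2 ratio in those partly overlapping pairs had a median of −0.09. Ratios of nested pairs were dispersed: 72 members were at least 4 times above the host (15.2%, beside 20.4% over all overlapping pairs), 171 at least 4 times below it (36.2%, beside 25.0%), and 124 within 2-fold (26.2%, beside 30.0%). Across the 473 pairs, which share 1 pooled library set, the coverage of the member showed almost no relation to that of the host (Spearman's rho 0.04, as a description).

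**Figure D3:**
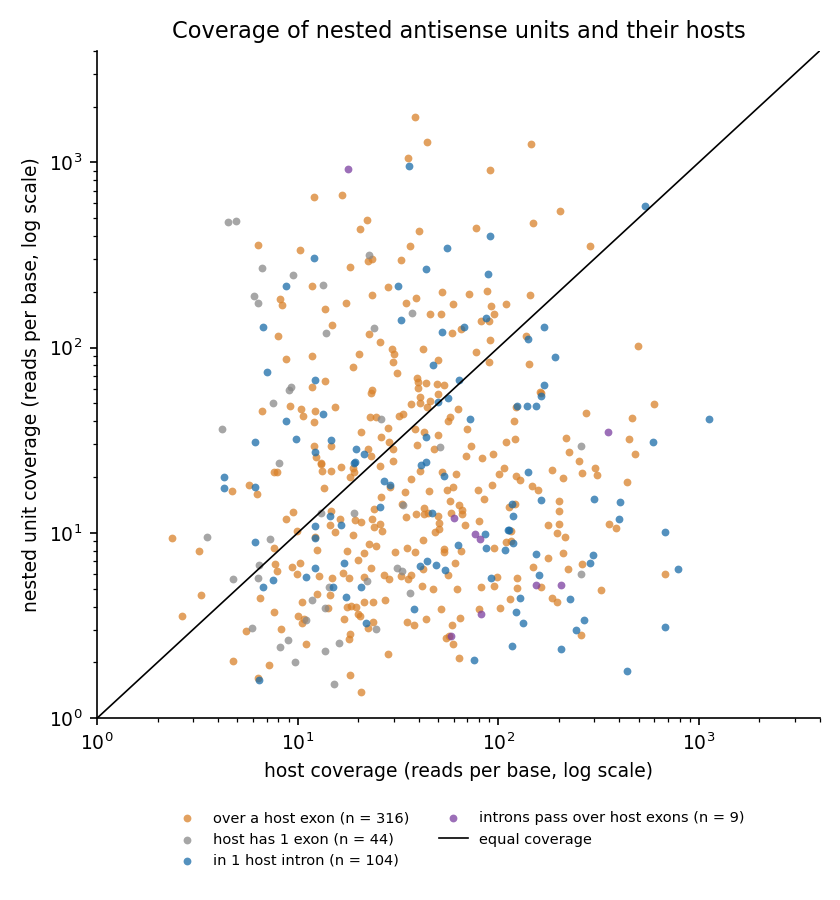
Coverage of each nested unit (vertical, reads per base) against that of its host (horizontal, reads per base), both on log axes, for 473 pairs coloured by where the exons of the nested unit lie, with a line at equal coverage. Most points (300 of 473) lie at or below the line, and the 173 above it include points of every colour.

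By location, the log2 ratio had a median of −1.20 for members in 1 host intron (33 of 104 above the host), −1.13 for those over exons (118 of 316) and −0.09 for those in single-exon hosts (21 of 44). Single-exon units had to reach 3.5 reads per base to be listed and spliced ones 1.2, and hosts of 1 exon had a median coverage of 12.4. Members wholly inside 1 host exon had a median of −0.67 and the other members over exons −1.41. Where exons of both strands overlapped, the coverage of the member exon was set over that of the host exon. The median log2 ratio was −0.07 in 1376 exon pairs, with quartiles of −2.31 and 2.14. Every exon pair counted once, so members with many exons weigh more. This median is therefore not comparable with those per member. In 302 pairs with both kinds of host exon, the exons under the member had less coverage than the others of the same host, by a median of −0.47 on the log2 scale. Length and place of the host exons were not taken into account, and exons that held a whole member were very long. The part of exon length in this difference was not tested.

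The ratio went with the number of exons. The 247 members with 2 exons (52.2%, against 26.7% of all spliced units) had a median log2 ratio of −2.13, and 54 of them (21.9%) were above the host. The 114 with 3 or 4 exons had −0.76 and 37.7% above. The 86 with 5 to 9 exons had 0.90, and 58 (67.4%, 57.0 to 76.4%) were above the host. The 26 with 10 or more had 0.74, with 18 (69.2%) above. For the 226 members with 3 or more exons together the median was 0.28, so that the overall median was below 0 only with the 2-exon units included. With FPKM of at least 1 required of member and host, 253 pairs were left and their median was −0.02. Median FPKM in the same 4 classes was 0.977, 1.95, 5.87 and 6.24. The part of read depth in this order was not tested. The location did not follow the same order, with 25.9, 21.9, 22.1 and 19.2% of members in host introns.

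**Figure D4:**
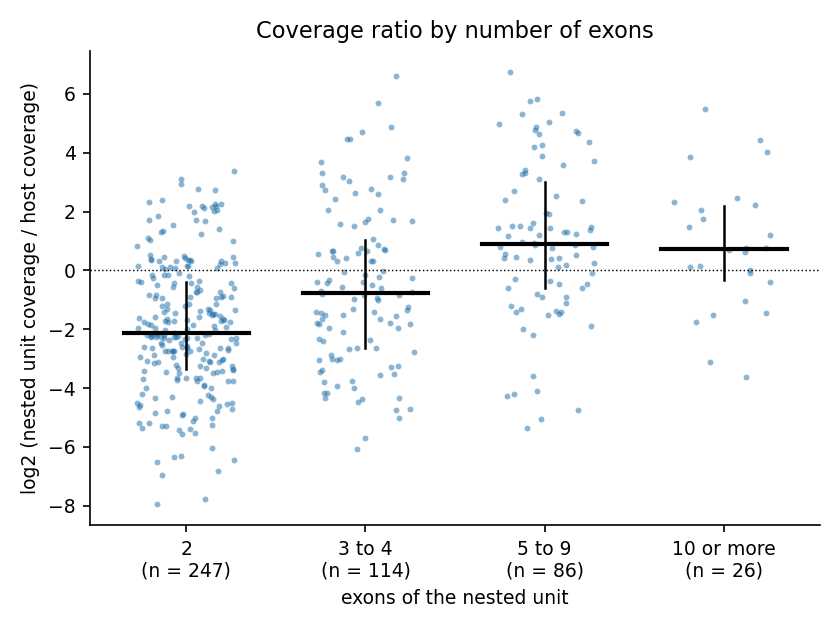
Log2 ratio of nested unit coverage to host coverage (vertical) by the number of exons of the nested unit (horizontal). Each point is 1 of 473 pairs, horizontal bars are medians (−2.13, −0.76, 0.90 and 0.74) and vertical bars run between the quartiles, and the medians of units with 5 or more exons lie above the dotted line of equal coverage.

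Most of the highest ratios were found in hosts of low coverage, which is partly built in because host coverage is the denominator. REV.7680, the host of FORW.7845, had 38.5, which is above the coverage of the median host. REV.8388 on chromosome 17 (5817949 to 5824516) had 7 exons and a coverage of 478, while FORW.8553, 1 exon of 6.83 kb that encloses it almost exactly, had 4.49. The ratio of 106 was the highest of all. FORW.6656 on chromosome 9 (5403668 to 5405156) had 4 exons and 485 reads per base, against 4.92 in the single-exon host REV.6533 of 11.7 kb, a ratio of 98.5. FORW.6914 on chromosome 10 followed REV.9674 with 53.7, its 9 exons reaching 648 reads per base and those of REV.6799 12.1. The 10 highest ratios lay between 31.6 and 106, and 4 of these 10 hosts had 1 exon.

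The lowest ratios belonged to weak 2-exon units in strongly covered hosts, where both coverages enter the ratio by which they were picked. REV.5264 on chromosome 6 (551220 to 553213) had 1.79 reads per base, against 437 in FORW.5401, where it lay in the first intron of 107 kb. It was the only member inside 2 hosts. FORW.4963 and FORW.4961 on chromosome 5 had 3.10 and 6.01, against 675 in REV.4801, which encloses both. Their log2 ratios were −7.77 and −6.81, and −4.94 and −3.70 by median exon coverage. FORW.4961 lay inside a 4.76-kb exon near the 3′ end of that host, and its only intron measured 24 bp. All 5 members with the lowest ratios had 2 exons and 1 transcript.

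FORW.8273, on chromosome 15 at 5927938 to 5960204, had the most exons. All 63 of them lay within exons of the 6-exon host REV.8104, which covered 100% of their bases. Coverage was 174 in the member and 34.5 in the host, a ratio of 5.05. Taken by the median exon the order turned, with 174 in the member and 299 in the host, whose exons ranged from 10.3 to 614. Exons 5 and 6 of the host measured 20090 and 13611 bp and had a coverage of only 39.2 and 10.3, while its exons 2 to 4 were short and had 558, 614 and 558. REV.9622, REV.9565 and REV.9566 on chromosome 24 had 24, 24 and 23 exons, each inside 1 host intron of over 100 kb.

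Members had fewer exons and were shorter than the 14405 other spliced units, which include the hosts with introns. A unit has to fit inside another one to be a member, so the shorter span and exonic length are partly set by the rule. The median member had 2 exons, against 5 in other units and 9 in hosts with introns. The span was 5.04 kb, against 15.8 and 33.1 kb, and exonic length 2665 bp, against 4942 bp in other units. A single transcript was assembled for 333 members (70.4%), beside 47.9% of all spliced units. In 102 members (21.6%, beside 13.8%) exons filled at least 90% of the span. Expression had a median of 1.59 FPKM, against 3.70 in other units and 3.98 in hosts with introns. The parts of expression level and span in the lower numbers of exons and transcripts were not tested.

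Introns of the members were short. The 1393 introns had a median of 444 bp (20 to 43740 bp), against 799 bp for the 111090 introns of other spliced units. The 4600 introns of the hosts, which are among these 111090, had a median of 813 bp. Introns under 1 kb made up 75.9% of the members' introns and 57.8% of the others, and those of 10 kb or more 1.36% and 4.73%. A member has to fit inside its host, which limits long introns more than short ones. The part of this limit in the difference was not tested. Introns of at most 100 bp made up 12.4% of the members' introns and 6.77% of the others. The median was 589 bp in members within 1 host intron, 398 bp in those over host exons and 356 bp in single-exon hosts. First introns had a median of 556 bp and later introns 398 bp in the 226 members that had both. At the short end, 29 introns (2.08%, against 0.776% in other units) measured less than 70 bp, and in 13 members (2.75%, 1.61 to 4.65%) every intron was that short, which is near the 1.92% of other spliced units.

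**Figure D5:**
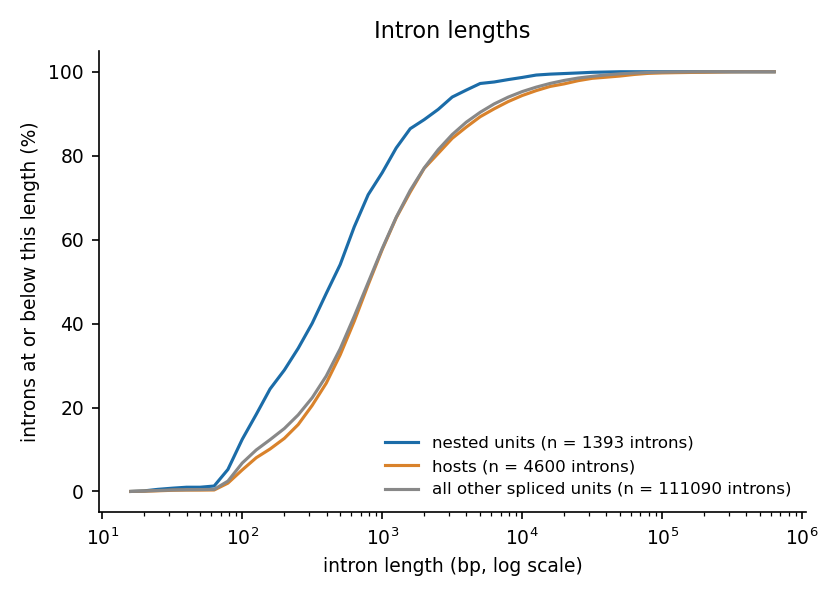
Cumulative share of introns (%) by intron length (bp, log axis) for nested units (1393 introns), their hosts (4600) and all other spliced units (111090). Introns of the hosts are also counted among those of the other spliced units. The curve of the nested units lies to the left of both others, with medians of 444, 813 and 799 bp.

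Introns with the same ends on both strands were found in 3 members (0.634%), and 0 members shared only 1 intron end with the host. FORW.9859 on chromosome 25 (2989295 to 2990400) had 2 exons with coverage of 6.05 and 9.57. Its 101-bp intron was that of the 2-exon host REV.9772, whose exons had 2.09 and 2.40, and both units ended at the same base. FORW.3517 and FORW.2623 on chromosome 3 had introns of 364 and 734 bp in common with REV.3356 and REV.2519. Their coverage was 3.07 and 2.23, against 22.4 and 28.1 in these hosts. An intron has its splice signals on 1 strand only, so the strand of 1 unit in each of these 3 pairs is in doubt. Without the genome sequence the signals were not read here.

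Most hosts held a single member. Of 438 hosts, 411 held 1, 21 held 2, 5 held 3 and 1 held 5, and 0 members were themselves hosts of a spliced antisense unit. The share of units that were hosts grew with the span. It was 0.0935% for units under 5 kb, 3.88% for 20 to 50 kb and 6.19% for the 711 units of 100 kb or more. Per Mb of unit span the order was different, with 0.337 members in units under 5 kb, 1.69 in units of 5 to 10 kb, 1.29 in those of 20 to 50 kb and 0.535 in those of 100 kb or more. Hosts of 1 exon numbered 42.

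The host with 5 members, FORW.9734 on chromosome 24, had 9 exons over 333 kb, and a single last intron of 329 kb made up nearly all of its length. REV.9621 to REV.9625 lay one after another in that intron, at midpoints of 0.0177 to 0.156. They had 5, 24, 5, 5 and 3 exons and a coverage of 27.3, 67.0, 6.43, 9.35 and 10.9, against 12.1 in the host. The last host exon, 892 bp beyond the intron, had a coverage of 9.72. REV.5270 on chromosome 6 enclosed FORW.5406, FORW.5407 and FORW.5408 in an intron of 274 kb, with a coverage of 264, 32.7 and 24.1, against 43.7 in the host. Introns of 100 kb or more occurred in 13 hosts of 24 members. In these, 14 members lay inside the long intron, and for 10 of the 14 it was the first or last intron of the host. Nesting of such members rests on 1 junction that the assembler accepted from 5 reads upward. The other 449 members had 20.5% in host introns and a median log2 ratio of −1.14.

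In the other hosts with 3 members, no member lay inside an intron of 100 kb or more. REV.6159, REV.6160 and REV.6161 lay at midpoints of 0.0584, 0.409 and 0.593 in FORW.6314 on chromosome 8, with a coverage of 56.8, 15.0 and 54.7, against 163 in the host. In REV.5377 on chromosome 6, FORW.5514 and FORW.5515 overlapped each other in intron 6. REV.4801 held FORW.4962 beside the pair described above, with 10.1 reads per base and 4 exons.

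By chromosome, 2.52% (2.19 to 2.90%) of the spliced units of chromosomes 1 to 5 were members. The share was 3.85% (3.33 to 4.45%) on chromosomes 6 to 15 and 3.81% (3.17 to 4.58%) on chromosomes 17 to 28. Within the first class it was 1.58% on chromosome 1 and 1.597% on chromosome 2. Chromosomes 3, 4 and 5 had 3.12, 3.37 and 3.71%. The lower share of the first class thus came from chromosomes 1 and 2 and was not shared by all of its chromosomes. Chromosome 24 had the highest share with 17 of 193 (8.81%, 5.57 to 13.7%), of which 10 lay in host introns and 5 in FORW.9734 alone. The lowest was chromosome 22 with 2 of 173. The share in host introns was 29.9% on chromosomes 1 to 5, 18.6% on 6 to 15 and 22.0% on 17 to 28. Single chromosomes weighed heavily in it: chromosome 6 held 11 of the 33 such members of chromosomes 6 to 15. Chromosome 24 held 10 of the 24 on chromosomes 17 to 28. Member introns had medians of 700, 427 and 327 bp in these classes, in the same order as other spliced units, whose introns had medians of 1036, 732 and 495 bp. The log2 ratio had medians of −1.47 (−1.95 to −0.98), −0.90 (−1.46 to −0.27) and −0.58 (−1.36 to 0.27), with overlapping intervals. Within classes it varied more, from −1.69 on chromosome 9 to 1.37 on chromosome 10. On chromosomes 17 to 28 it ran from −3.46 on chromosome 20 to 0.77 on chromosome 18.

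At the edge of the rule, FORW.10128, FORW.9859 and FORW.9776 shared an end position with their hosts to the base. Just outside it, FORW.390 and REV.9830 extended 2 bp beyond the opposite unit and FORW.5485 extended 3 bp. Their coverage was 287, 204 and 4.57, against 4.11, 17.0 and 6.05 in the opposite units.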

How the data were processed

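Adapters were trimmed with cutadapt, reads were aligned with HISAT2 to ASM2420605v2, split by direction, freed of duplicates with SAMtools and merged over experiments by the authors. Whether ooplasm reads entered is not stated. StringTie 2.2.2 was run per direction with the settings of the file header (coverage of at least 1.2 for spliced and 3.5 for single-exon transcripts, isoform fraction 0.05, at least 5 junction reads with a 10-bp anchor, length of at least 1000 bp, gap of at most 300 bp). The deposited file gives signal as read coverage per base, FPKM and TPM per transcript, and a score column that the authors left at StringTie's constant, which was not used. TPM summed to 997030 (forward) and 998714 (reverse), and 1 FPKM equalled 10.6 and 10.5 reads per base, so coverage was compared across runs directly.

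Units, hosts and exon overlaps were computed with Python 3 scripts (NumPy, pandas), where the shortest host was taken for a unit with several. The code was tested on simulated annotation. Shares have 95% Wilson intervals and medians binomial order-statistic intervals. The members, lists and the rule for named units were chosen with earlier results of these data known. Named were the 10 highest FPKM, the 10 highest and 5 lowest ratios, the 5 hosts with most members, the longest spans and introns, the most exons, equal introns and the 3 units nearest to the threshold on each side, of which the text describes a part. The reference annotation was of another build and gave no gene names. Alternatives covered the representative transcript, span, exon and FPKM minimum, chromosomes, run and measure of coverage.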

Additional observations from a re-analysis of the deposited data

Results flagged for a closer look

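Signals outside the rule were seen in 2 sets of units. First, 27 spliced units lay inside an opposite-strand unit but carried a strand opposite to the run that assembled them. They are among 409 spliced units of that kind, and their log2 coverage ratio to the host had a median of −1.68. By construction each of these 27 came from the same run as its host, whereas a member and its host come from different runs. None of the 27 had an intron equal to a host intron (0 of 27, Wilson interval up to 12.5%). This count is therefore not comparable with that of the members. Second, 44 spliced units on chromosomes not covered by the rule were nested antisense (2.45% of 1798 spliced units there). Of these, 8 lay on chromosome Z, 8 on W, 5 on 16 and 5 on 38. The assembly holds no control sample.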

How the results depend on the processing

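No paired analysis was possible because all libraries had been merged before assembly and no value belongs to one of them, and for the same reason no replicate could be left out. There is no depth per library, and units under the listing minima are missing. The direction of the median log2 coverage ratio changed under 1 alternative only: with 3 or more exons it was 0.285. The longest transcript gave −0.612 with 581 members (456 of them among the 473), and FPKM of at least 1 in both gave −0.0185. The number of members was 226 with 3 or more exons, 253 with FPKM of at least 1, 286 without chromosomes 1 to 5, and 245 and 228 in the forward and reverse runs. Hosts numbered 209, 236, 263, 225 and 213 in these settings. The share in host introns was 32.6% with the union of transcripts as span, 19.9% without chromosomes 1 to 5 and 19.5% against exons of all host transcripts. The members' share of spliced units was 3.88% with the longest transcript, 3.93% with the union span, 2.07% with 3 or more exons, 2.16% with FPKM of at least 1, 2.88% with hosts of 2 or more exons and 3.84% without chromosomes 1 to 5. Median introns were 493 bp with the longest transcript, 488.5 bp with the union span, 383.5 bp without chromosomes 1 to 5 and 967 bp for each member's longest intron. The 5′ end of the member lay at 0.647, as its construction on the opposite strand gives. Introns equal on both strands numbered 0 with 3 or more exons, 0 with FPKM of at least 1, 1 without chromosomes 1 to 5 and 0 in the reverse run. Hosts without introns of 100 kb or more and members with an intron of at least 70 bp, both chosen after seeing the data, moved no share or median beyond its interval. Counts have no interval: members numbered 449 and 460 in these settings, hosts 425 and 426, and equal introns 3 in each. By median exon coverage, the log2 ratio of FORW.8273 was −0.78 and that of REV.9566 −0.62. Splice-site dinucleotides were not run.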

Other observations

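Spliced units inside the span of a longer unit on the same strand numbered 97. None of the 97 had an exon over a host exon, and 91 (93.8%) lay in 1 host intron. An assembler merges overlapping exons on 1 strand into 1 unit, so this absence is set by the method, and the members to set beside them are the 113 without exon overlap. These units had a median span of 9.38 kb, a median midpoint of 0.376 and introns with a median of 377 bp. Their log2 coverage ratio to the host had a median of −0.85, and 31 (32.0%) were above the host. Single-exon units nested antisense had a median log2 ratio of −4.03, and 55 of 926 (5.94%) were above the host. Their median coverage of 5.09 lay near the listing minimum of 3.5.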
